A study of Homo sapiens with 3 samples.

Results

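The Tribbles genes TRIB1, TRIB2 and TRIB3 encode pseudokinases. They are 3 of the 19775 genes that a probe set of these arrays names alone. They were read by 7 of 54675 probe sets, namely every probe set whose platform annotation names exactly 1 of these 3 genes: 3 for TRIB1, 2 for TRIB2 and 2 for TRIB3. RNA came from undifferentiated cells of khES3, a human embryonic stem cell line, held for 5 hours in leucine-deprived medium, in lysine-deprived medium or in complete medium. Each medium had 1 Affymetrix array, so no difference below has a replicate check and none has a p-value. The labels name no genetic change or added agent in any of the cultures.

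Tribbles proteins have the fold of a protein kinase but little or no catalytic activity, and they act as scaffolds. A tail on the far side of the kinase-like domain binds the ubiquitin ligase COP1, and Tribbles proteins are also known to bind MAP kinase kinases or AKT. TRIB1 and TRIB2 are best known for bringing C/EBP-alpha to COP1 for degradation. TRIB3 is best known as a gene switched on by the transcription factors ATF4 and CHOP when amino acids run short or the endoplasmic reticulum is stressed, and TRIB3 protein in turn binds and restrains both factors.

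Promoter sequence is shown for TRIB3, the Tribbles gene with the largest difference, and for TRIB2, which differed between the deprivations. Both are the 250 bases before a transcript start, from RefSeq on GRCh38.p14, plus strand. The TRIB3 stretch is chr20:381045-381294, before the first of the 3 TRIB3 starts in the table, and the TRIB2 stretch is chr2:12716686-12716935. Capitals mark matches to the GC box letters GGGCGG on either strand.
TRIB3: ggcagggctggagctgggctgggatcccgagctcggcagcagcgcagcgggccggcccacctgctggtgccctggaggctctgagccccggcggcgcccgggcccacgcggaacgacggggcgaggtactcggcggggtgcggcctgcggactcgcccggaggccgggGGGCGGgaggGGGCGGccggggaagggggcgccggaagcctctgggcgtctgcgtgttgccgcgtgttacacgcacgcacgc
TRIB2: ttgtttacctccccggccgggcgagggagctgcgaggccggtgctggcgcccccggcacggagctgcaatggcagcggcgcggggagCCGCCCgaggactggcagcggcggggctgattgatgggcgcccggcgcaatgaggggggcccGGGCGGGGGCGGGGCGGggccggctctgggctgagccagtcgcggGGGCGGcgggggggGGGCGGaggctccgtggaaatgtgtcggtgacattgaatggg
The TRIB3 stretch held 2 GC boxes and the TRIB2 stretch 6, some of them adjoining. Over windows of 300 bases (250 before to 50 after the start), 45.0% of all 35116 RefSeq promoter windows held this motif. GC content was 77.0% in the first TRIB3 window and 77.3% in the TRIB2 window, against a median of 58.7% over all windows.

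The other motifs were searched on both strands of the same windows. These were the core letters of the amino acid response element, TGATGNAA, the cyclic AMP response element TGACGTCA and the CCAAT box. None of them matched in the 3 overlapping TRIB3 windows or in the TRIB2 window. TGATGNAA occurred in 3.62% of all windows, TGACGTCA in 1.85% and CCAAT in 34.6%. No match says only that these letters are not in this window. For comparison, stretches with TGATGNAA (in capitals, read along the strand that holds the match) are shown for genes of the stress lists described further on: CHAC1 at chr15:40953252-40953279 (minus strand), ASNS at chr7:97872459-97872486 (minus strand), CEBPG at chr19:33374061-33374088 (plus strand) and ATF3 at chr1:212565206-212565233 (plus strand), all GRCh38.p14.
CHAC1: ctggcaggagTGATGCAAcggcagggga
ASNS: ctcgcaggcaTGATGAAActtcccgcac
CEBPG: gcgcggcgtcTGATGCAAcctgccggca
ATF3: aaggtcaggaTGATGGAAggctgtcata
The genes shown are the matching genes of these lists that were measured at least 2-fold higher in both deprivations. That difference therefore follows from the choice. PPP1R15B (0.39 and 0.57 in log2 signal for leucine- and lysine-deprived over complete), SLC3A2 (0.88 and 0.83) and FGF21 (a bound) also matched. The windows of G0S2, DDIT3, DDIT4 and STC2, which lie near TRIB3 in the comparison further on, held no match. Those of CEBPB, ATF5, SESN2, MTHFD2, CTH and VLDLR, listed genes also at least 2-fold higher in both deprivations, held none either. A match is a description of the letters and was not tested as a binding site.

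Values are MAS5 signal intensities in arbitrary units. Signals below each array's 40th percentile were treated as dim and set to that floor, which was 56.7 on the leucine-deprived, 62.4 on the lysine-deprived and 54.6 on the complete-medium array. A difference with 1 of the arrays at its floor is given as a bound. The median signal was 90.6, 98.2 and 82.8 in the same order. Of the 7 Tribbles probe sets, 4 were above the floor on all arrays and 5 passed the level filter (mean signal at or above the median probe set). Of 11 undifferentiated stem cell markers 9 were analysed, and all 9 were above the floor on every array. Fibroblast or feeder markers summed to 17281 on the leucine-deprived, 22006 on the lysine-deprived and 15402 on the complete-medium array. Of these 7 markers 4, 4 and 6 were above the floor in the same order, and FAP was below it throughout. COL1A1 alone read 13187, 18609 and 11552 of these sums. Trophoblast markers (4 analysed) summed to 394, 288 and 275, with 3, 1 and 2 above the floor. Neural ectoderm markers (4) summed to 4296, 3857 and 4363, with 2, 1 and 2 above it. Of the neural sums NES alone made up 4187, 3818 and 4232. Mesoderm and endoderm markers (7) summed to 623, 962 and 644, with 4, 5 and 5 above it. Of these TBXT read 202, 454 and 171. The 3′ to 5′ signal ratio of ACTB, which grows as RNA degrades, was 7.55 on the leucine-deprived, 11.2 on the lysine-deprived and 5.44 on the complete-medium array, and that of GAPDH was 1.23, 1.25 and 1.08. The part of these differences in the Tribbles values was not tested.

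**Figure D1:**
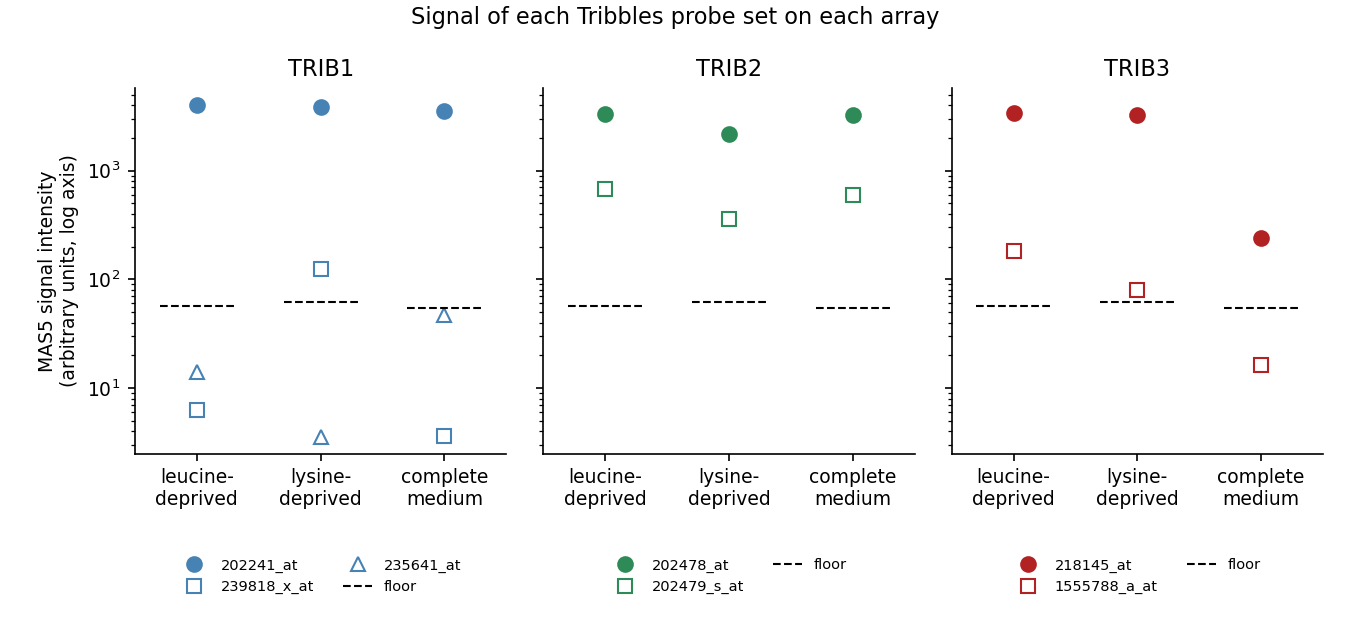
Signal of the 7 Tribbles probe sets (vertical log axis, arbitrary units) on the leucine-deprived, lysine-deprived and complete-medium arrays, with filled symbols for the brightest probe set of each gene and dashed lines for each array's floor. TRIB3 218145_at stands at 3376 and 3258 on the deprived arrays and at 242 in complete medium, whereas both TRIB2 probe sets are lowest on the lysine-deprived array.

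TRIB3 had a far higher signal on both deprived arrays. In bulk RNA, more cells expressing a gene and more RNA per cell cannot be told apart. Its brighter probe set, 218145_at, read 3376 after leucine removal and 3258 after lysine removal, against 242 in complete medium. Both deprived arrays were high and close to each other, and the complete-medium array was low. The difference was 13.96-fold (3.80 on the log2 scale) for leucine-deprived over complete and 13.5-fold (3.75) for lysine-deprived over complete. Between the deprivations it was 1.04-fold (0.05 in log2 signal, leucine-deprived over lysine-deprived). The error these arrays offer is the SD, within a gene, of its probe sets' log2 differences, which was 0.42, 0.48 and 0.48 in the 3 comparisons and leaves out the spread between cultures. Both differences over complete medium were several times that SD, and the difference between the deprivations was below it. On the deprived arrays 94.7% (leucine) and 94.5% (lysine) of probe sets were no brighter than 218145_at, against 69.2% in complete medium.

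Among genes above the floor on both arrays TRIB3 ranked number 2 from the top in each deprivation, of 12298 genes for leucine and 12270 for lysine. Of the 3 Tribbles genes, 1 was at least 2-fold higher after leucine removal, where 2.67% of all genes were. After lysine removal 1 of 3 was as well, where 4.37% of all genes were. Of the 6477 brighter genes (mean signal no lower than that of the median gene) the share was 0.865% for leucine and 1.48% for lysine. No Tribbles gene was 2-fold lower by its brightest probe set in either deprivation. Counted in either direction, 4.17% of all genes were past 2-fold for leucine and 6.41% for lysine.

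The second TRIB3 probe set, 1555788_a_at, was dim. It read 184 after leucine removal and 79.7 after lysine removal, against 16.4 in complete medium, where it lay below the floor. Only the leucine-deprived reading was above its array's median, so the level filter kept this probe set through that array. As bounds it was at least 3.37-fold higher after leucine removal and at least 1.46-fold higher after lysine removal. Its order was the same as that of the brighter probe set, with both deprived arrays above complete medium. The probe sets parted on the comparison of the deprivations. There 1555788_a_at was 2.31-fold higher on the leucine-deprived than on the lysine-deprived array, past the 2-fold mark that 2.40% of 22535 probe sets reached in that direction. The gap between the TRIB3 probe sets in this comparison was 1.16 in log2 signal. Of 5525 genes with several measured probe sets, 15.8% had a gap at least as wide. The TRIB3 gap rests on a probe set kept through its leucine-deprived reading, so this share describes and tests nothing.

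Averaging both kept probe sets lowered the TRIB3 difference to 2.78 for leucine-deprived over complete and 2.15 for lysine-deprived over complete. It gave 0.63 for leucine-deprived over lysine-deprived, where the dim probe set had been kept through its high leucine-deprived reading. The dim probe set enters that mean at the floor in complete medium, so its share of both differences over complete medium is a bound. It was above the floor on both deprived arrays, where the probe sets differed by 0.05 and 1.21 between the deprivations. Without the floor the dim probe set was 3.49 for leucine and 2.29 for lysine. Both use a complete-medium value below the floor, so neither is a measured difference. As bounds they do not conflict with the brighter probe set. The measured disagreement is that between the deprivations, which cannot place it on either deprived array, and its cause was not tested.

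TRIB2 showed another pattern, with a lower signal on the lysine-deprived array and little difference on the leucine-deprived one (0.03 by its brighter probe set, or -0.10 after median centring). Probe set 202478_at read 3301 after leucine removal and 2172 after lysine removal, against 3237 in complete medium. Probe set 202479_s_at read 675 and 358 on the deprived arrays, against 595 in complete medium. In both probe sets the lysine-deprived array was the lowest, and the leucine-deprived array lay slightly above complete medium. For lysine-deprived over complete the log2 differences were -0.58 and -0.73, both larger than the SD between probe sets of a gene (0.48). For leucine-deprived over complete they were 0.03 and 0.18, both below the SD of 0.42.

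Set directly against each other, the deprivations differed by 0.60 and 0.91 in TRIB2 log2 signal, leucine-deprived over lysine-deprived (1.52- and 1.88-fold). This stayed short of 2-fold, which 2.01% of 12282 genes reached in that direction and 4.97% in either direction. The next 2 shares use the less extreme TRIB2 value as cut-off, in the direction TRIB2 took, so they describe its place and test nothing. Genes with more probe sets than TRIB2 had to pass in all of them, which lowers the shares. Of 5559 genes with several kept and measured probe sets, 64 (1.15%) had every probe set at or below -0.58 for lysine-deprived over complete. Of 5525 such genes, 32 (0.579%) had every probe set at or above 0.60 for leucine-deprived over lysine-deprived. By its brightest probe set alone, TRIB2 had 1114 of 12270 genes (9.08%) below it for lysine-deprived over complete. Among the 6477 brighter genes 344 (5.31%) were below it. Probe sets of 1 gene on 1 array read the same RNA and are not replicates.

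TRIB1 differed little. Its bright probe set, 202241_at, read 4034 after leucine removal and 3875 after lysine removal, against 3509 in complete medium. Both deprived arrays were slightly higher, by 0.20 and 0.14 in log2 signal, which is below the SD between probe sets of a gene. The deprivations differed by 0.06 (leucine-deprived over lysine-deprived). After centring arrays on their medians the lysine value was -0.10, in a setting that moved the median of all genes to -0.24, so the direction of so small a difference depends on the scaling.

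The other TRIB1 probe sets were dim. Probe set 235641_at read 14.0, 3.55 and 47.5 on the leucine-deprived, lysine-deprived and complete-medium arrays, below the floor on each, so it gave no difference. Probe set 239818_x_at, of a kind that may bind other transcripts, read 6.28 after leucine removal and 124 after lysine removal, against 3.64 in complete medium. It was above the floor on the lysine-deprived array alone, which made it at least 2.26-fold higher there than in complete medium. The bright TRIB1 probe set did not show this difference.

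**Figure D2:**
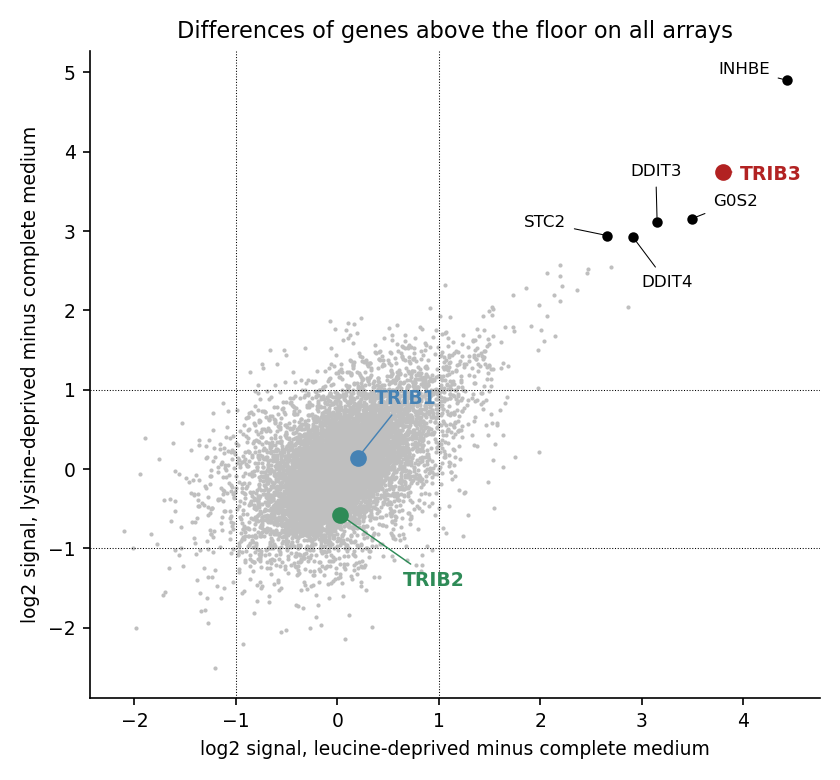
Each grey point is 1 of 11981 genes above the floor on all arrays, placed by its log2 signal difference for leucine-deprived minus complete medium (horizontal) and lysine-deprived minus complete medium (vertical); dotted lines mark 2-fold. TRIB3 lies at 3.80 and 3.75 with INHBE beyond it, TRIB1 near 0 at 0.20 and 0.14, and TRIB2 at 0.03 and -0.58. Both axes share the complete-medium array.

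The genes most like TRIB3 were found by the distance between pairs of log2 differences (leucine and lysine, each over complete medium), over 11981 genes and 3 arrays. The nearest was G0S2, an inhibitor of fat breakdown, at a distance of 0.67. G0S2 read 1109 and 879 on the leucine- and lysine-deprived arrays, against 98.4 in complete medium. DDIT3, which encodes CHOP, followed at 0.91, then DDIT4, an inhibitor of mTORC1 signalling, at 1.21. INHBE, an activin subunit gene, was at 1.31, and STC2, a secreted glycoprotein gene, at 1.40. TRIB3 stood nearly alone, since only G0S2 and DDIT3 lay within a distance of 1 and 0 genes lay within 0.1. By contrast 410 genes lay within 0.1 of TRIB1 and 103 within 0.1 of TRIB2, so for these 2 genes no single neighbour is named. Few genes lie far from 0, so these counts largely follow from the size of each gene's differences. All of these differences share the complete-medium array.

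The integrated stress response lies upstream of TRIB3. In it, eIF2-alpha kinases slow translation in general and raise that of ATF4. All 14 listed genes were measured. For leucine-deprived over complete 5 were at least 2-fold higher and 0 lower, where 2.67% of all genes were higher, with a median of 0.51 in log2 signal against 0.01 over all genes. For lysine-deprived over complete 6 were higher and 0 lower, where 4.37% of all genes were higher, with a median of 0.79 against 0.01. Without probe sets that can bind several transcripts or genes (names ending in _x_at or _s_at) 11 listed genes were measured, of which 4 were 2-fold higher for leucine and 3 for lysine.

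DDIT3 had the largest difference of that list and read 2830 after leucine and 2776 after lysine removal, against 319 in complete medium (3.15 and 3.12 in log2 signal). CEBPB, which encodes a C/EBP partner of ATF4, read 7475 and 7938, against 1890 in complete medium (1.98 and 2.07). ATF3, a stress-induced transcription factor gene, was 2.21 and 2.31 higher in log2 signal, although its other probe set was -0.28 for lysine. ATF5, related to ATF4, was 1.46 and 1.49 higher, with its other probe set at 1.29 and 0.14. CEBPG, another C/EBP partner gene, was 1.27 and 1.33 higher and its lower probe set 1.20 and 1.25. NUPR1, a stress-induced chromatin protein gene, was 0.66 higher after leucine and 1.37 after lysine removal.

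The remaining stress response genes stayed within 2-fold by their brightest probe set. ATF4 read 23778 and 26784 on the leucine- and lysine-deprived arrays, against 15422 in complete medium, a difference of 0.62 and 0.80. The phosphatase subunit genes PPP1R15B and PPP1R15A, which restore translation, differed by 0.39 and 0.57 and by 0.38 and 0.79. The other PPP1R15A probe set was 1.86 for leucine and 0.06 for lysine. Among the eIF2-alpha kinases, EIF2AK4 (the amino acid sensor GCN2) differed by -0.28 and 0.44. EIF2AK3 differed by 0.05 and 0.27, EIF2AK2 by 0.33 and 0.20 and EIF2AK1 by 0.07 and -0.05. EIF2S1, their substrate, differed by -0.25 and 0.02.

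Most measured genes known as ATF4 or CHOP targets, TRIB3 left out, read above complete medium on each deprived array. Of 17 listed genes 15 were measured, 1 (FGF21) gave a bound and 1 (BBC3) was not analysed here. Of the measured genes 14 lay above 0 in each deprivation, 8 were at least 2-fold higher for leucine and 9 for lysine, with 0 lower in either. Of all genes 2.67% and 4.37% were 2-fold higher. Without _x_at and _s_at probe sets 7 genes of the list were measured and 4 were 2-fold higher in each deprivation. ERO1A, an oxidoreductase gene of the endoplasmic reticulum, differed by -0.54 and -0.44 and TNFRSF10B, a death receptor gene, by 0.14 and 0.15, both singled out after their values were seen. The kept ERO1A probe sets ran from -0.54 to 0.36 for leucine and from -0.44 to 0.02 for lysine. Those of TNFRSF10B ran from -0.16 to 0.25 and from -0.13 to 0.15. Over the 15 genes the medians were 1.21 and 1.22 in log2 signal, against 0.01 over all genes in each comparison. DDIT4 read 12609 and 12820 on the leucine- and lysine-deprived arrays, against 1680 in complete medium. CHAC1, a glutathione-degrading enzyme gene, read 1930 and 1743, against 299 in complete medium. SLC7A11, the cystine carrier gene, was 2.13 and 2.20 higher in log2 signal, although 1 of its 3 probe sets was only 0.10 for lysine. FGF21, a stress hormone gene, was at the floor in complete medium and at least 1.52 and 1.74 higher as a bound. DDIT4 had the largest difference of the list, at 2.91 and 2.93, against 3.80 and 3.75 for TRIB3. The list was assembled with the behaviour of several of its genes in these arrays already known, and so is not independent evidence of a direction. TGATGNAA occurred in the promoter windows of 4 of 15 genes of this list and 3 of 12 of the stress response list that have one in the table, against 4.46% of all 27305 genes.

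**Figure D3:**
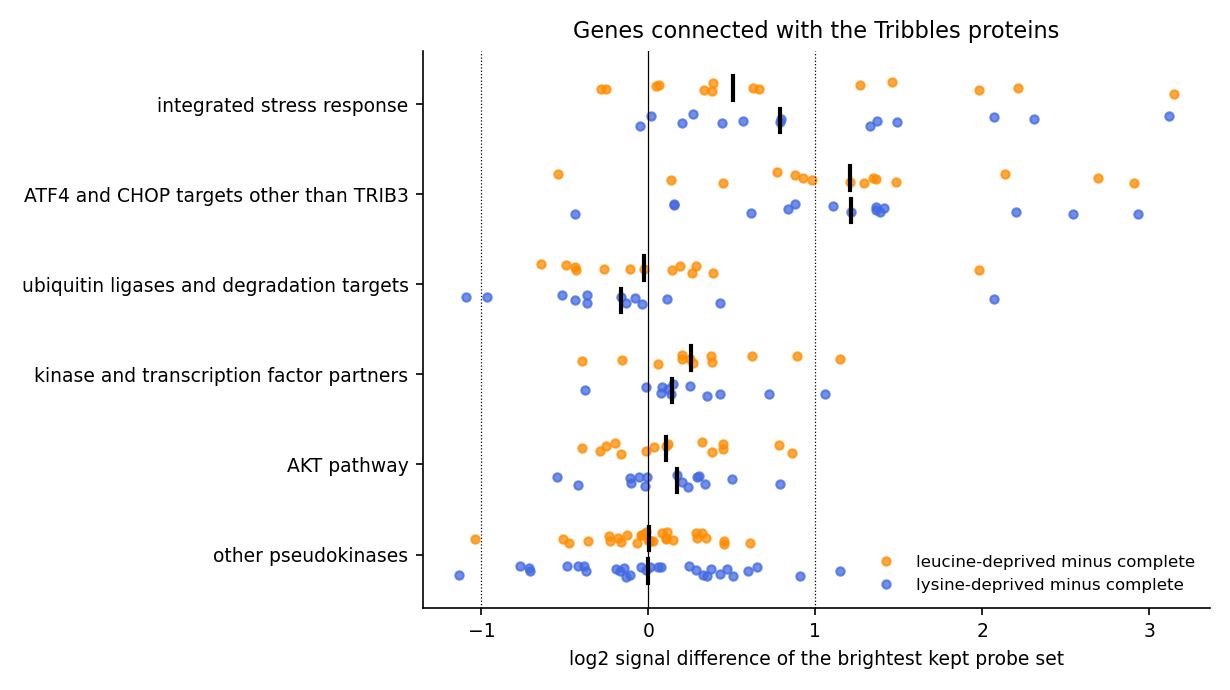
Log2 signal differences over complete medium for the measured members of 6 gene lists, leucine-deprived in orange above lysine-deprived in blue, 1 point a gene by its brightest kept probe set; black bars are medians and dotted lines mark 2-fold. The stress response list has medians of 0.51 and 0.79 and the ATF4 and CHOP target list 1.21 and 1.22, while the other lists have medians between -0.16 and 0.26.

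Downstream of the Tribbles proteins, the ubiquitin ligases and degradation targets had 13 of 13 genes measured. By the brightest probe set 1 of these was at least 2-fold higher in each deprivation, namely CEBPB, which is also in the stress response list. For leucine 0 were 2-fold lower and for lysine 1 was, CEBPA. Against the 4.17% and 6.41% of all genes past 2-fold in either direction, counts of 1 and 2 in 13 say little about the list. Median centring gave 2 lower for lysine. Their medians were -0.03 for leucine and -0.16 for lysine in log2 signal. CEBPA, the best known degradation target of TRIB1 and TRIB2, was dim and read 105 and 68.7 on the leucine- and lysine-deprived arrays, against 147 in complete medium (-0.49 and -1.09). Its lysine-deprived value was close to that array's floor of 62.4. RNA signals do not show how much of a protein is degraded, so the values of this list do not read Tribbles action on these targets. TRIM21, a ubiquitin ligase gene, differed by -0.44 and -0.97, and CDC25C, a mitotic phosphatase gene, by 0.38 and -0.44. The kept CDC25C probe sets, where a floor value may enter, ran from 0.01 to 0.38 for leucine and from -1.24 to -0.44 for lysine. Those of CUL4A, a ubiquitin ligase gene singled out after its values were seen, ran from -0.76 to 1.34 and from -0.49 to 1.45. COP1, singled out for its role after its values were seen, read 2218 and 1769, against 1819 in complete medium (0.29 and -0.04).

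Of 15 kinase and transcription factor partners 12 were measured, and 1 was 2-fold higher in each deprivation (MAPK3 for leucine, FOXO3 for lysine), with 0 lower. With 2.67% and 4.37% of all genes 2-fold higher, 1 gene in 12 is no result about the list, and median centring left 0 higher for lysine. Without _x_at and _s_at probe sets 0 of 7 were higher for leucine. The medians of the 12 genes were 0.26 for leucine and 0.14 for lysine. FOXO3, a transcription factor gene held in check by AKT, read 3023 and 3402 on the leucine- and lysine-deprived arrays, against 1630 in complete medium. Its 4 kept probe sets all lay above 0, from 0.69 to 0.95 for leucine and from 0.84 to 1.06 for lysine. MAPK3, which encodes the kinase ERK1, differed by 1.15 and 0.72 and rests on 1 probe set. AKT1 differed by 0.62 and 0.25 and MAPK9, a JNK gene, by 0.38 and 0.43. The kept MAPK9 probe sets ran from -0.44 to 0.38 for leucine and from -0.62 to 0.43 for lysine. No AKT pathway gene of the 15 measured was past 2-fold in either direction by its brightest probe set. Of all genes 4.17% and 6.41% were, so a count of 0 in 15 says little about the list. Other kept probe sets, where a floor value may enter, reached 1.70 for lysine (GSK3A) and -1.17 for leucine (IRS1). The AKT pathway medians were 0.11 for leucine and 0.17 for lysine. In that list RICTOR, a subunit of mTORC2, differed by 0.45 and 0.79 and IRS2, an insulin receptor substrate gene, by 0.78 and 0.29. The kept RICTOR probe sets ran from -0.83 to 0.45 for leucine and from -0.11 to 0.79 for lysine. The AKT phosphatase genes PHLPP1 and PHLPP2 differed by 0.86 and -0.02 and by -0.40 and -0.54.

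Of 40 other pseudokinase genes listed, 30 were measured, with medians of 0.00 in both deprivations, against 3.80 and 3.75 for TRIB3. For leucine 0 were at least 2-fold higher and 1 lower, and for lysine 1 was higher and 1 lower. These counts are close to the 4.17% and 6.41% of all genes past 2-fold in either direction, and under median centring the lysine counts were 0 higher and 2 lower. ROR2, a WNT receptor gene, was 1.15 higher for lysine and at least 1.13 lower for leucine as a bound, and KSR2, a scaffold of the ERK pathway, was at least 0.91 higher in both as a bound. TEX14, an intercellular bridge gene, differed by -0.36 and -1.13 and EPHB6, an ephrin receptor gene, by -1.04 and 0.24. STK40, the closest relative of the Tribbles genes, singled out after its values were seen, read 489 and 686 on the leucine- and lysine-deprived arrays, against 454 in complete medium (0.11 and 0.60).

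**Figure D4:**
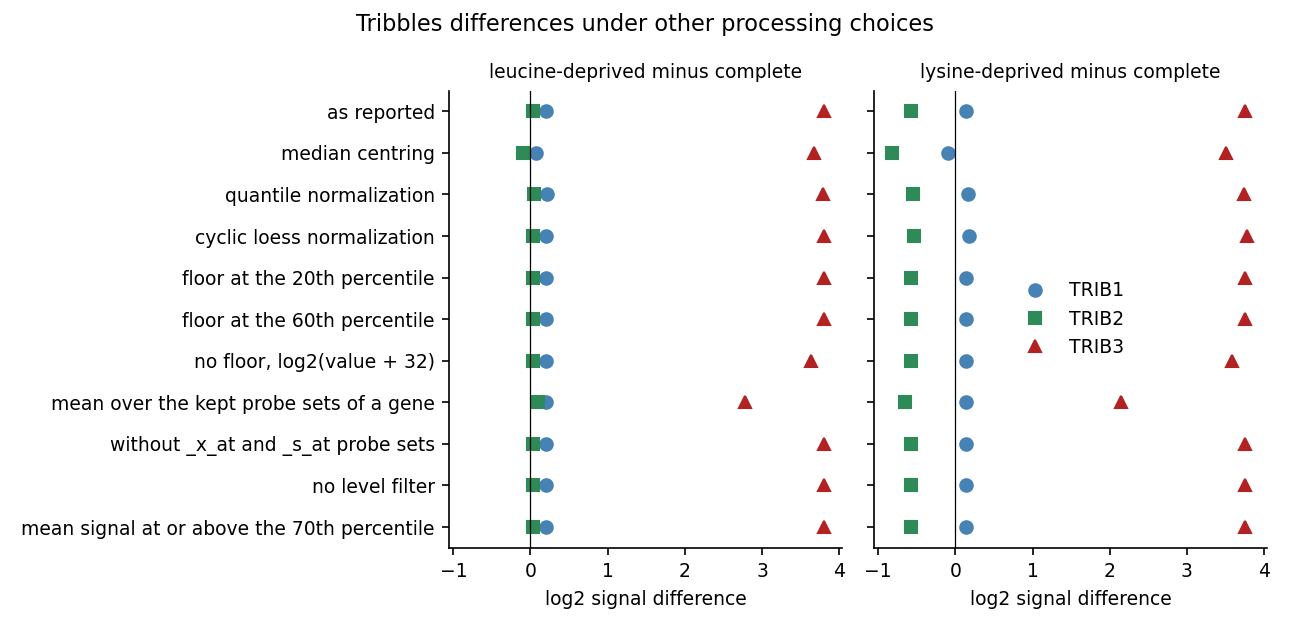
Log2 signal difference of TRIB1, TRIB2 and TRIB3 over complete medium (horizontal) as reported and under 10 other processing settings (rows), for leucine-deprived on the left and lysine-deprived on the right. TRIB3 runs from 2.78 to 3.80 for leucine and from 2.15 to 3.78 for lysine, with the lowest values from averaging probe sets, and TRIB2 runs from -0.82 to -0.54 for lysine. Other floors, other level filters and the removal of _x_at and _s_at probe sets cannot move these values.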

How the data were processed

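The authors deposited 1 signal intensity per probe set and array on a linear scale, made with MAS5 per the submitters' processing notes, with settings not given in the sources used here. The 2% trimmed mean was 500.1 on each array, so intensities had been scaled to a common mean, which removes any difference in total mRNA. Labelling used 100 ng of total RNA and a 3′ in vitro transcription kit, per the labels' protocols.

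Of 54613 probe sets other than controls, 41091 name 1 gene. Intensities under an array's 40th percentile were raised to it before log2 was taken. Probe sets with a mean signal at or above the median were kept (23041), and each of 12953 genes took its brightest kept probe set. A difference counted as measured with both arrays above the floor, and otherwise as a bound. Gene symbols came from the platform annotation, checked against RefSeq by Entrez identifier (0 changed). No test was possible with 1 array per group, and the number of arrays limits the precision. The Tribbles genes, gene lists and motifs were chosen with earlier results of these data known. Named are all Tribbles probe sets, all stress response genes, up to 4 genes of each other list (those differing most on average, in size) and the 5 genes nearest to TRIB3. The calculation was tested on simulated arrays with less noise than the SD between probe sets of a gene. That checks the code and gives no error for these arrays. Alternatives were other scalings, floors, level filters, probe set choices and fold thresholds. Python 3.11.15, numpy 2.4.6, pandas 2.3.3, R 4.3.3 and limma 3.58.1 were used.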

Additional observations from a re-analysis of the deposited data

Results flagged for a closer look

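TRIB2 stood out because its probe sets differed from complete medium in opposite directions in the deprivations. For lysine-deprived over complete medium 202478_at was at -0.58 and 202479_s_at at -0.73 in log2 signal, whereas for leucine-deprived over complete medium they were at 0.03 and 0.18. The leucine values are smaller than the SD between probe sets of a gene, and with 1 array per medium the difference was not tested. The ACTB 3′ to 5′ ratio was 11.2 on the lysine-deprived array, against 5.44 in complete medium, and its part in the TRIB2 values was not tested.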

How the results depend on the processing

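No paired analysis was possible because each medium has 1 array. The other floors, the other level filters and the removal of _x_at and _s_at probe sets could not move any Tribbles value. Under them each Tribbles gene kept the same brightest probe set, above the floor on all arrays. Of 90 Tribbles differences recomputed under 10 settings, these included, 87 moved by less than the SD between probe sets of a gene. The exceptions were TRIB3 values under the mean of its probe sets. They were 2.78 after leucine removal, 2.15 after lysine removal (each over complete medium) and 0.63 between the deprivations. The last is the mean of 0.05 and 1.21, and the dim probe set was kept through its high leucine-deprived reading. The cause of the disagreement between the probe sets was not tested. Median centring moved the median of all genes to -0.12, -0.24 and 0.13 in the 3 comparisons, and there TRIB1 changed sign for lysine (-0.10) and TRIB2 for leucine (-0.10). All 180 recomputed list medians moved by less than that SD. Of the counts of list members past the threshold, 364 stayed within 1.5 times and 68 did not. Median centring gave 0 partners higher for lysine (against 1), 0 and 2 pseudokinases higher and lower (1 and 1) and 2 ubiquitin list genes lower (1). Without _x_at and _s_at probe sets, where fewer list genes were measured, 4 ATF4 and CHOP targets were higher in each deprivation (8 and 9) and 3 stress response genes for lysine (6).

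Counts of genes past 2-fold (328 higher and 185 lower for leucine, 536 and 250 for lysine, 247 and 363 for leucine- over lysine-deprived) depended on the setting. Median centring gave 207 and 283 for leucine (42.2% higher, against 63.9% as reported), 265 and 608 for lysine (30.4%, against 68.2%) and 370 and 260 between deprivations (58.7%, against 40.5%). Quantile normalization gave 453 and 344 for lysine (56.8%) and 338 and 310 between deprivations (52.2%). A floor at the 20th percentile gave 551 and 397 for leucine, 813 and 496 for lysine and 508 and 631 between deprivations. A floor at the 60th gave 122 and 44, 210 and 104, and 78 and 88. Without a floor, log2(value + 32) gave 299 lower for leucine, 380 lower for lysine and 392 higher between deprivations. A level filter at the 70th percentile gave 111 and 37, 197 and 111, and 90 and 75. At 1.5-fold the counts were 1146 and 749, 1651 and 1082, and 962 and 1165, and at 3-fold 43 and 21, 87 and 27, and 34 and 51.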
